A study of Homo sapiens with 2 samples.

Results

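YAP and TEAD target genes are genes whose transcription is driven by the co-activators YAP and TAZ bound to TEAD factors on DNA. The 10 members described here, CCN1, CCN2, ANKRD1, AMOTL2, AJUBA, LATS2, AXL, F3, CRIM1 and PTPN14, were taken by name, and each was found by its Entrez ID among the 16399 genes listed. All 10 passed the filter of 1 CPM (counts per 1000000 counts of the library) in at least 1 library. Their expression was measured in the A549 cell line, which derives from a human lung adenocarcinoma, in 1 library of cells carrying the vector and 1 library of cells overexpressing plakophilin 2 (PKP2), an armadillo protein of the desmosome, with an SFB tag (S-protein, FLAG and streptavidin-binding peptide). Both cultures were at passage 5 and grown in serum-supplemented DMEM. Whether either culture was a clone or a pool, and which promoter drove the tagged protein, is not stated in the labels. Each group is thus a single culture without replicates, no p-value was computed, and each difference is between these libraries.

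In the Hippo pathway the MST kinases (STK3, STK4) activate the LATS kinases, which phosphorylate YAP and TAZ and keep them out of the nucleus. Unphosphorylated YAP and TAZ enter the nucleus, bind TEAD factors at the motif GGAATG and raise genes for matrix signalling, adhesion and cytoskeletal tension. Several targets are themselves inhibitors of YAP, so the list holds both outputs and negative feedback. In lung epithelium the pathway responds to cell density, cell contacts and stiffness, and in lung cancer cells it is known for growth and drug tolerance.

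The library totals were 16996976 counts for vector and 16808842 for PKP2, and 12820 genes passed the filter. PKP2 itself was at 27.3 CPM (464 counts) in vector and 268 CPM (4505 counts) in PKP2, in the direction of the labels. The epithelial keratins KRT8 and KRT18 were abundant in both, at 5339 and 3875 CPM in vector and 5416 and 3849 CPM in PKP2, and EPCAM, another epithelial marker, was low at 1.47 and 1.37 CPM. The other 2 of the 5 epithelial markers went opposite ways, KRT19 with a ratio of 1.13 (1.09 to 1.17) and CDH1, which encodes E-cadherin, with one of 0.871 (0.797 to 0.952). Fibroblasts also express several of the members. Of 8 fibroblast markers 6 were measured, and their summed level was 11.1 CPM in vector and 14.0 CPM in PKP2, most of it COL1A1, with COL3A1 and PDGFRB at 1 or 2 counts. The 4 endothelial markers measured summed to 0.294 and 0.952 CPM, with VWF at 0 in vector. The 3 leukocyte markers measured summed to 82.1 and 86.0 CPM, nearly all from CD68, a lysosomal protein gene that is also expressed outside leukocytes. Both cultures were of the A549 cell line, so these levels are not read as the presence of other cell types. Their relation to the differences below was not tested. In bulk RNA, fewer expressing cells and less RNA per cell cannot be told apart.

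As a group the members were lower in the PKP2 library. Together they held 1276 CPM in vector and 1130 CPM in PKP2, 1.13-fold lower (95% counting interval 1.11 to 1.15). Of the 10 members, 8 had a counting interval of the ratio below 1, against 19.8% of all expressed genes, and 0 had one above 1, against 16.3%. Among the 10846 genes averaging at least 5 CPM, as all members do, 2450 had one below 1 and 1978 above. The interval is exact (Clopper-Pearson), comes from the counts of the gene in both libraries and covers counting error only, so it is narrow for abundant genes whatever the spread between cultures. The differences were small. None of the members was at least 1.5-fold apart, a step that 0.788% of expressed genes passed on the lower side and 0.733% on the higher side. The median difference of the members, as log2(CPM + 1) in PKP2 minus that in vector, was -0.27, beside 0.00 over all expressed genes and -0.01 over the 10846 genes averaging at least 5 CPM. The difference was below 0 in 8 of 10 members and in 50.3% of expressed genes. Most genes of another short list were also called to 1 side. Of 10 housekeeping genes, 7 had an interval above 1 and 0 below, with a median difference of 0.12.

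CCN1 and CCN2, the best known YAP targets, had the highest ratios of the list, and the only intervals among the 10 that included 1. Both encode secreted matricellular proteins that bind integrins and growth factors. CCN1 (Entrez ID 3491, chromosome 1, 85580761 to 85583962, GRCh38, plus strand) was at 182 CPM (3099 counts) in vector and 185 CPM (3106 counts) in PKP2, a ratio of 1.01 (0.964 to 1.07). CCN2 (Entrez ID 1490, chromosome 6, 131948176 to 131951373, minus strand) was at 140 CPM (2382 counts) and 142 CPM (2379 counts), a ratio of 1.01 (0.954 to 1.07). Neither gene differed detectably at this depth. Summed over both genes the ratio was 1.01 (0.975 to 1.05), whereas over the other 8 members it was 0.843 (0.824 to 0.863), from 953 to 804 CPM.

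**Figure D1:**
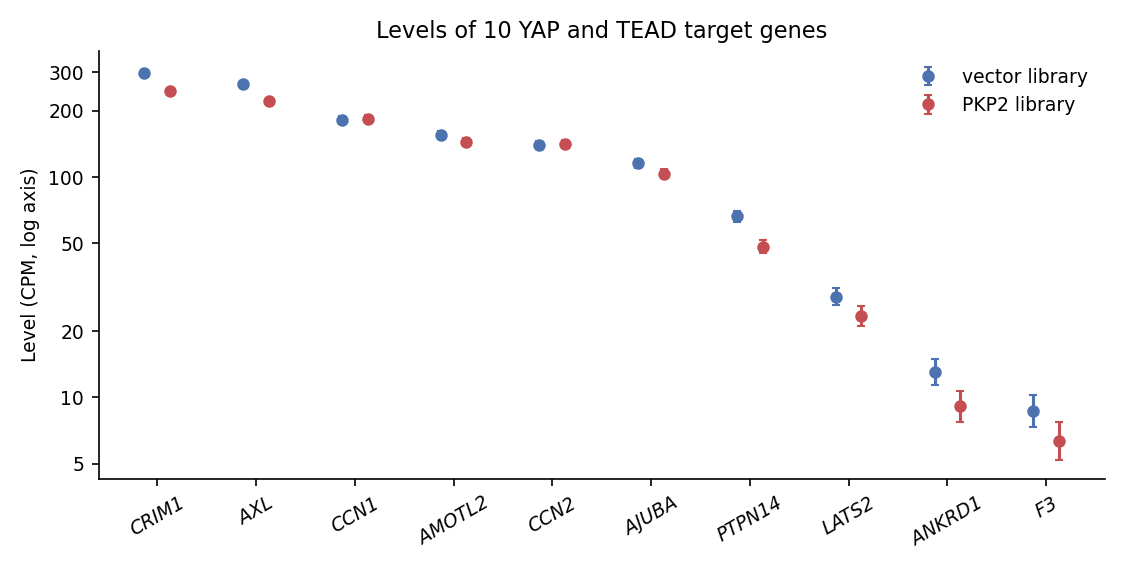
Level of each member in vector (blue) and PKP2 (red) cells in CPM on a log axis, with exact Poisson 95% intervals that cover counting error, 1 library per group. Points of CCN1 and CCN2 lie level between the libraries, and the other 8 members are lower in PKP2, from CRIM1 at 298 and 245 CPM to F3 at 8.71 and 6.37 CPM.

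Among the outputs with roles in muscle, coagulation and growth factor signalling, ANKRD1 had the lowest ratio of all members. ANKRD1 (Entrez ID 27063, chromosome 10, 90912096 to 90921276, minus strand), an ankyrin repeat protein that acts in the nucleus and at the sarcomere, was at 13.1 CPM (222 counts) in vector and 9.10 CPM (153 counts) in PKP2. Its ratio was 0.697 (0.563 to 0.860), and 1.31% of the genes averaging at least 5 CPM had a lower difference. F3 (Entrez ID 2152, chromosome 1, 94529225 to 94541800, minus strand), the tissue factor that starts coagulation, was at 8.71 CPM (148 counts) and 6.37 CPM (107 counts). Its ratio was 0.731 (0.565 to 0.944), with 3.03% of these genes lower. These are the members with the fewest counts, and their intervals are the widest of the list.

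The membrane proteins AXL and CRIM1 had the most counts of the members and narrow intervals. AXL (Entrez ID 558, chromosome 19, 41219203 to 41261766, plus strand), a receptor tyrosine kinase tied to resistance to EGFR inhibitors, was at 266 CPM (4528 counts) in vector and 222 CPM (3737 counts) in PKP2, a ratio of 0.834 (0.799 to 0.872). CRIM1 (Entrez ID 51232, chromosome 2, 36355926 to 36551135, plus strand), a transmembrane protein that binds bone morphogenetic proteins, was at 298 CPM (5067 counts) and 245 CPM (4123 counts), a ratio of 0.823 (0.790 to 0.857). Lower differences were found for 10.5% of the genes averaging at least 5 CPM in the case of AXL and 8.89% in the case of CRIM1. Both lie below most genes, but not among the extremes.

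The remaining 4 members are themselves regulators of the pathway, not all in the same direction, and all 4 were lower. PTPN14 (Entrez ID 5784, chromosome 1, 214348696 to 214552449, minus strand), a phosphatase that binds YAP and holds it in the cytoplasm, was at 66.5 CPM (1131 counts) in vector and 48.3 CPM (812 counts) in PKP2, a ratio of 0.726 (0.663 to 0.795). LATS2 (Entrez ID 26524, chromosome 13, 20973032 to 21061547, minus strand), a kinase that phosphorylates YAP, was at 28.7 CPM (487 counts) and 23.4 CPM (394 counts), a ratio of 0.818 (0.714 to 0.936). AJUBA (Entrez ID 84962, chromosome 14, 22971174 to 22982642, minus strand), a LIM protein that inhibits LATS kinases at junctions, was at 116 CPM (1964 counts) and 104 CPM (1743 counts), a ratio of 0.897 (0.841 to 0.958). AMOTL2 (Entrez ID 51421, chromosome 3, 134355874 to 134375479, minus strand), an angiomotin that binds YAP, was at 156 CPM (2652 counts) and 145 CPM (2438 counts), a ratio of 0.930 (0.880 to 0.982). Thus PTPN14 differed most of the 4 and AMOTL2 least, with 1.69% and 30.5% of the genes averaging at least 5 CPM lower than they were. The exons of PTPN14 in GENCODE release 29 share 1213 bases with KRT18P12, a processed pseudogene of KRT18 on the opposite strand. Those of CCN2, AMOTL2, CRIM1, AXL and AJUBA also overlap other annotated genes, by 195 bases in CCN2 down to 50 in AJUBA. The labels do not state whether counting used strand, and whether keratin reads entered the PTPN14 count was not tested. PTPN14 had whole counts in both libraries, as did all 10 members.

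Ratios between members do not depend on the library totals. The ratio of one member divided by the ratio of another was computed for all 45 pairs, with an exact conditional 95% interval for counting error. It excluded 1 in 25 pairs. CCN1 or CCN2 was in 16 of these 25, that is, in all pairs of either with one of the other 8 members. Pairs that share a gene are not independent, and the share over pairs of other expressed genes was not computed. The interval of CCN1 over CCN2 was 0.930 to 1.08, around 1.00. CCN1 over PTPN14 was 1.40 (1.26 to 1.55) and CCN2 over ANKRD1 was 1.45 (1.17 to 1.81). Of the 28 pairs without CCN1 and CCN2, 9 excluded 1, among them AMOTL2 over PTPN14 at 1.28 (1.15 to 1.43) and AXL over PTPN14 at 1.15 (1.04 to 1.27). The other 19 pairs, AXL over CRIM1 at 1.01 (0.955 to 1.08) among them, could not be told apart at this depth. After removal of the trend over gene length and GC content that is described further on, 15 of the 45 pairs excluded 1, 10 of them pairs of CCN1 or CCN2 with another member and 5 pairs of the others. CCN1 and CCN2 could then no longer be told apart from AMOTL2, AJUBA and LATS2, with CCN1 over AMOTL2 at 1.05 (0.970 to 1.13), CCN1 over AJUBA at 1.07 (0.988 to 1.16) and CCN1 over LATS2 at 1.14 (0.984 to 1.31). AMOTL2 over PTPN14, at 1.11 (0.999 to 1.24), and AXL over PTPN14, at 1.02 (0.917 to 1.12), lost their calls too. The trend-removed intervals leave out the error of the trend, so calls with a bound close to 1 are uncertain.

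**Figure D2:**
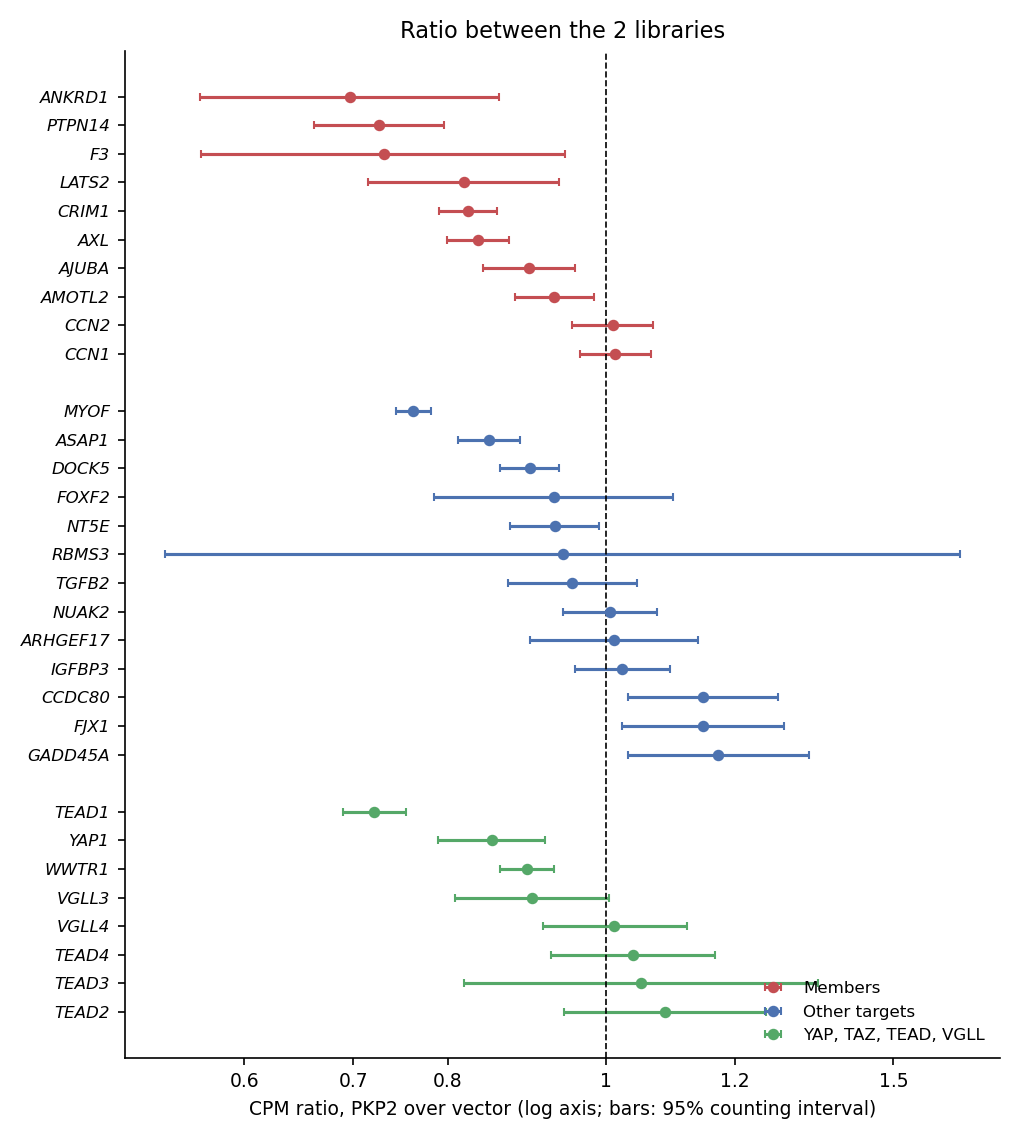
Ratio of CPM, PKP2 over vector, on a log axis for the 10 members (red), 13 further targets (blue) and the 8 expressed genes for YAP, TAZ, TEAD and VGLL proteins (green), with 95% counting intervals and a dashed line at 1. Of the members 8 lie wholly below 1, the further targets lie on both sides, and TEAD1 has the lowest ratio of the green group, at 0.721.

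Per length, CCN1 was the member with the highest level and F3 the one with the lowest in both libraries. On the scale of CPM per kilobase of the longest transcript in GENCODE release 29, CCN1 was at 79.6 in vector and 80.7 in PKP2, followed by CCN2 at 59.9 and 60.5 and AXL at 56.2 and 46.9. CRIM1, AMOTL2 and AJUBA came next, at 50.4, 34.5 and 27.1 in vector and 41.5, 32.1 and 24.3 in PKP2. ANKRD1, LATS2, PTPN14 and F3 were lower by a wide gap, at 6.60, 5.20, 5.12 and 3.81 in vector and 4.60, 4.25, 3.72 and 2.78 in PKP2. The order was the same in both libraries. Neighbours with overlapping counting intervals were CCN2 and AXL, and LATS2 and PTPN14, in vector, and ANKRD1 and LATS2, and LATS2 and PTPN14, in PKP2. The longest transcript need not be the one expressed, so the levels of PTPN14, with a length of 12985 nucleotides, may be understated.

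Between these libraries long transcripts were lower over the whole transcriptome, and this bears on the members. Over 10798 genes averaging at least 5 CPM, which are not independent replicates and share both libraries, Spearman's rho of the difference was -0.52 with transcript length and 0.41 with GC content. A smooth trend on both was estimated over these genes and read off at each member. For PTPN14 the trend was -0.18 of a difference of -0.45, and for CRIM1 -0.08 of -0.28. For ANKRD1 and F3, which have short transcripts of 1979 and 2287 nucleotides, the trend lay at 0.05 and 0.04, on the other side from their differences of -0.48 and -0.40. CCN1 and CCN2 also have short transcripts, with a trend of 0.08 and 0.09 beside differences of 0.02 and 0.01.

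**Figure D3:**
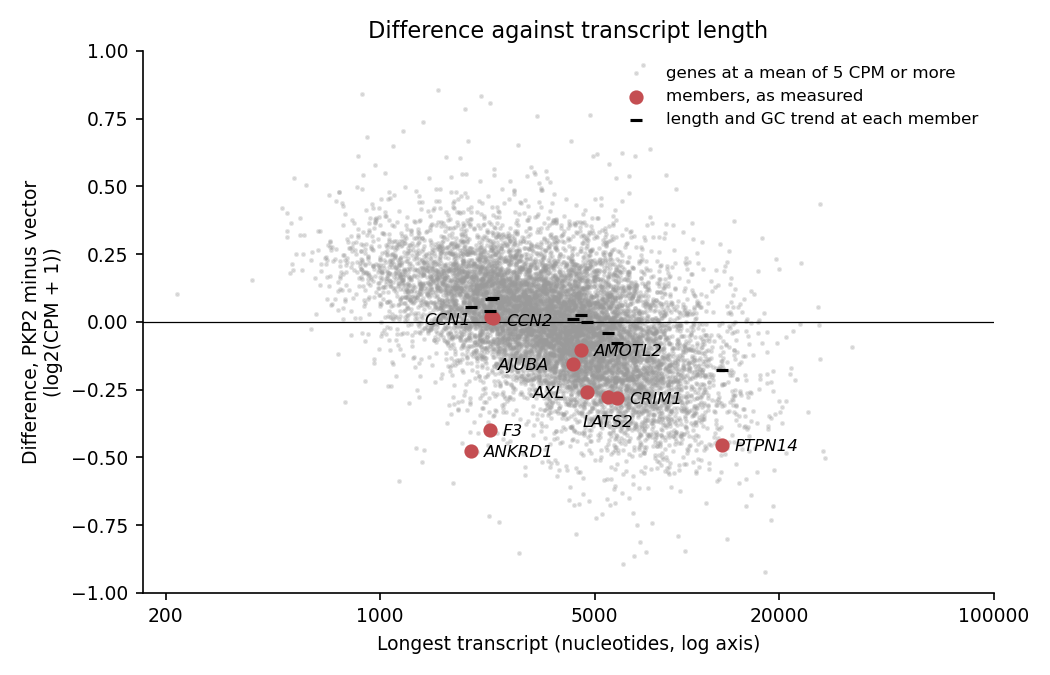
Difference in log2(CPM + 1), PKP2 minus vector, against the longest transcript in nucleotides on a log axis, for genes averaging at least 5 CPM (grey) and the members (red), with the length and GC trend at each member as a black dash. The 7 genes with a difference over 1 in size are outside the plotted range. ANKRD1 and F3 lie at the lower edge of the cloud at their length, while PTPN14 lies where long genes are low.

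With the trend removed, the 8 members whose interval lay below 1 still had one below 1, against 15.8% of the expressed genes with a length and GC record, and 0 lay above 1, against 10.9%. Among the 10798 such genes averaging at least 5 CPM, 1920 lay below 1 and 1287 above. Of the 10 housekeeping genes, 7 lay above 1 and 1 below. The member ratios were then 0.671 (0.543 to 0.828) for ANKRD1, 0.712 (0.550 to 0.919) for F3, 0.822 (0.750 to 0.901) for PTPN14 and 0.835 (0.799 to 0.872) for AXL. All trend-removed intervals take the fitted trend as exact and leave out its error. The trend was read off at the longest transcript, which need not be the one expressed. PTPN14 moved most, from a difference of -0.45 to -0.27. CCN1 and CCN2 changed sign, to -0.06 and -0.07, with ratios of 0.957 (0.910 to 1.01) and 0.950 (0.897 to 1.01) whose intervals include 1. The median difference of the members was -0.22, beside -0.02 over all expressed genes with a record.

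**Figure D4:**
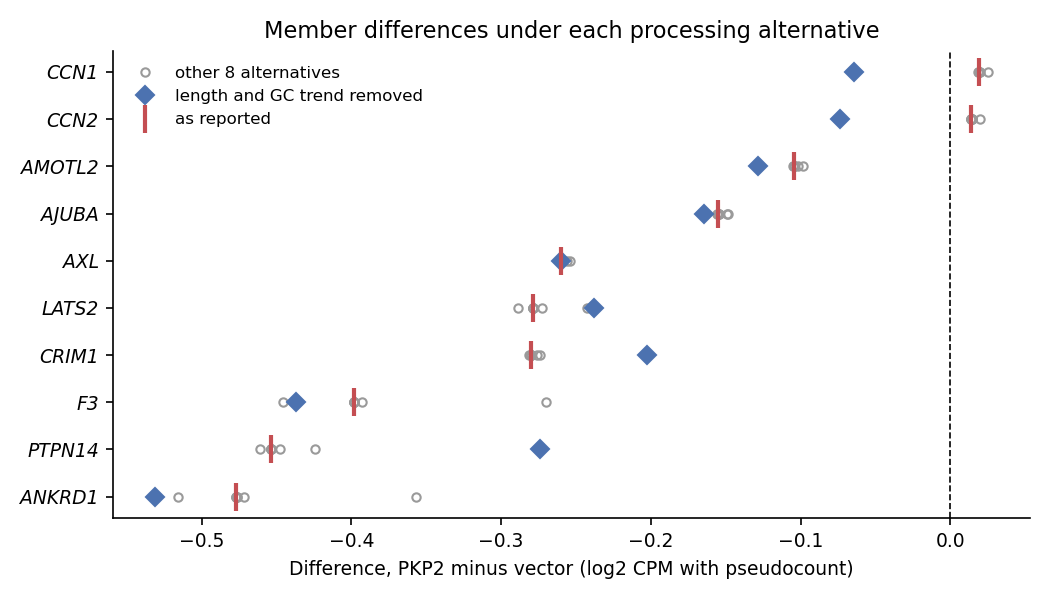
Difference of each member, PKP2 minus vector on the log2 scale with a pseudocount, as reported (red bars), with the length and GC trend removed (blue diamonds) and under the other 8 alternatives (grey circles). The 8 lower members stay below 0 throughout, and CCN1 and CCN2 cross 0 where the trend is removed.

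Promoter sequence was examined in RefSeq windows on GRCh38.p14 that run from 250 bases before to 50 bases after each annotated start. Windows were found for 8 members, with 11 starts, and CCN1 and CRIM1 had no entry. The TEAD motif GGAATG, searched on both strands (its complement reads CATTCC), was present in 7 of the 11 windows, those of 7 genes, against 14.0% of all 35116 windows and 11.3% of the windows of expressed genes. It occurred at least 2 times in CCN2 and ANKRD1, and in 1.37% of all windows. The AP-1 motif, TGACTCA or TGAGTCA, was found in F3 alone of the members, and in 4.95% of all windows. The CArG box, the motif of serum response factor, was found in 0 of the 11 windows and in 1.29% of all windows. No match overlapped a match of another motif. A match is a run of letters and not evidence of binding.

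The CCN2 promoter is shown because it holds the most matches of the members while its ratio was 1.01. It covers chr6:131951422-131951572, minus strand, from 200 to 50 bases before the start, outside the gene as annotated in GENCODE release 29, with the TEAD motif in capitals at 169, 104 and 95 bases before the start:
CCN2: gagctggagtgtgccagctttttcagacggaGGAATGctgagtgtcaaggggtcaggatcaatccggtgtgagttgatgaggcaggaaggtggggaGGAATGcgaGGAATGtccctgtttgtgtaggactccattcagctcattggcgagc

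ANKRD1, with 2 matches and the lowest ratio, 0.697, is shown for contrast, with the TEAD motif in capitals. Its matches lie 220 bases before the start, outside the annotated gene (chr10:90921290-90921319), and 128 bases before it, in the 5′ UTR of a longer GENCODE transcript (chr10:90921198-90921227), both on the minus strand:
ANKRD1, distal: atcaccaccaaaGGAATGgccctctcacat
ANKRD1, proximal: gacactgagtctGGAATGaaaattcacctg

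The other members with a match are shown by the match and its flanks, each read along the strand of the gene, with the motif in capitals. For LATS2 (chr13:21061560-21061589, minus strand) it lies 10 bases into the RefSeq transcript, and for PTPN14 (chr1:214551785-214551814, minus strand) and AXL (chr19:41226531-41226560, plus strand, the downstream start) 200 and 212 bases before the start, in introns of longer transcripts. For AJUBA (chr14:22976884-22976913, minus strand) and AMOTL2 (chr3:134374499-134374528, minus strand) it lies 59 and 69 bases before the downstream of 2 starts, in the UTR of GENCODE transcripts. The last line is the AP-1 motif of F3 (chr1:94541951-94541981, minus strand), 210 bases before the start:
LATS2: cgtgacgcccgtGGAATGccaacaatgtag
PTPN14: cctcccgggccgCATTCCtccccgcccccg
AXL: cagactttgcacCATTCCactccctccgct
AJUBA: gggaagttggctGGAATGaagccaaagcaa
AMOTL2: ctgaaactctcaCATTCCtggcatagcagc
F3: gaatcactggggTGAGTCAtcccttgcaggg

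CCN2, with 3 TEAD matches, lay at a ratio of 1.01, ANKRD1, with 2, at 0.697, and F3, with no TEAD match, at 0.731. Among the 8 members with a window, the order by number of TEAD matches was thus not the order by ratio. Sequence outside these windows was not searched, so sites elsewhere are not covered.

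**Figure D5:**
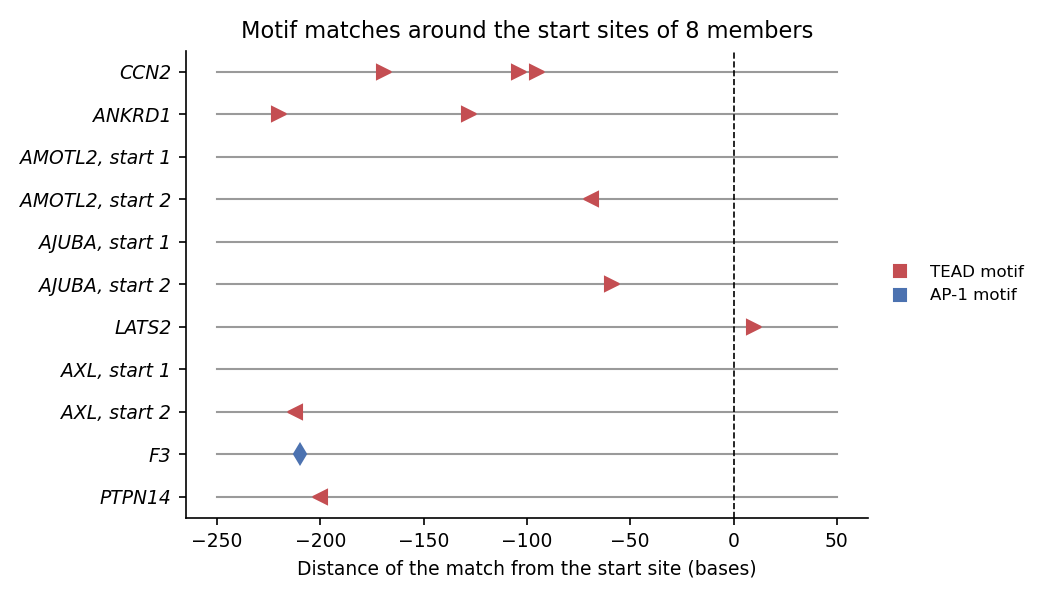
Position of each match in bases from the annotated start (dashed line) for the 11 windows of 8 members, as red triangles for the TEAD motif, which point right for GGAATG and left for its complement, and a blue diamond for the AP-1 motif. CCN2 holds 3 TEAD matches, ANKRD1 holds 2 and 5 further genes hold 1 each.

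The genes for YAP, TAZ and the TEAD factors, which were named whatever their values, were lower in PKP2 for TEAD1, YAP1 and WWTR1 and had intervals that included 1 for the other 5 expressed genes. TEAD1, the TEAD gene with the highest level per kilobase, at 32.7 CPM per kilobase in vector beside 20.4 for TEAD4, was at 277 CPM (4707 counts) in vector and 200 CPM (3356 counts) in PKP2, a ratio of 0.721 (0.690 to 0.754). YAP1 was at 88.7 and 75.5 CPM, a ratio of 0.851 (0.789 to 0.918). WWTR1, which encodes TAZ, was at 330 and 295 CPM, a ratio of 0.894 (0.861 to 0.929). These 3 of the 8 expressed genes had an interval below 1 and 0 had one above 1, beside 19.8% and 16.3% of all expressed genes. The ratios of TEAD2, TEAD3 and TEAD4 were 1.09 (0.942 to 1.25), 1.05 (0.819 to 1.35) and 1.04 (0.926 to 1.17). Of the VGLL cofactors, which compete with YAP for TEAD, VGLL3 was at 0.901 (0.808 to 1.00) and VGLL4 at 1.01 (0.914 to 1.12). VGLL2 had 2 counts and 1 count, and VGLL1 was not found among the genes listed. The transcripts of TEAD1, YAP1 and WWTR1 are long, and with the trend removed their ratios were 0.816 (0.781 to 0.853), 0.908 (0.842 to 0.979) and 0.957 (0.921 to 0.994).

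The 13 further YAP and TEAD targets lay on both sides of 1 as single genes. Summed, they were lower, from 1962 CPM in vector to 1689 CPM in PKP2, a ratio of 0.861 (0.847 to 0.875), and without MYOF the ratio was 0.943 (0.923 to 0.963). Of these 13, all expressed, 4 had an interval below 1 and 3 had one above 1, beside 19.8% and 16.3% of all expressed genes. Their median difference was -0.05. MYOF, a membrane repair protein, was at 886 and 675 CPM, a ratio of 0.762 (0.743 to 0.781). ASAP1, an Arf GTPase activator, was at 258 and 219 CPM, a ratio of 0.848 (0.811 to 0.886). GADD45A, a stress-induced growth arrest gene, was at 26.8 and 31.4 CPM, a ratio of 1.17 (1.03 to 1.33), and CCDC80, a matrix protein gene, at 39.6 and 45.4 CPM, a ratio of 1.15 (1.03 to 1.27). The trend-removed median of these targets was 0.01, with 3 below and 1 above, beside 15.8% and 10.9% of expressed genes, the latter CCDC80 at 1.32 (1.19 to 1.47). Whether the members and the further targets differ was not tested.

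The kinases of the pathway were slightly lower almost throughout, but few had an interval below 1 once the length and GC trend was removed. Of 16 expressed kinases and their scaffolds, 15 had a difference below 0, 9 had an interval below 1 and 0 above 1, beside 50.3%, 19.8% and 16.3% of all expressed genes. Their median difference was -0.12. TAOK1, which activates MST kinases, had a ratio of 0.815 (0.770 to 0.862), MOB1B, a LATS co-activator, 0.817 (0.699 to 0.954), LATS1 0.825 (0.731 to 0.930) and MAP4K3 0.843 (0.752 to 0.946). With the trend removed the median was -0.06 and 1 of the 16 had an interval below 1, beside 15.8% of expressed genes. It was MINK1 at 0.922 (0.878 to 0.970), which was chosen with its value in view and has a fractional count.

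Upstream regulators of the pathway differed in both directions. Of 14 expressed genes, 7 had an interval below 1 and 4 above 1, beside 19.8% and 16.3% of all expressed genes. The counts were also 7 and 4 with the trend removed, beside 15.8% and 10.9%. The atypical cadherin FAT1 was at 499 and 330 CPM, a ratio of 0.661 (0.638 to 0.683), and its relative FAT4 at 9.18 and 5.53 CPM, a ratio of 0.603 (0.461 to 0.784). With the trend removed they were at 0.751 (0.726 to 0.777) and 0.694 (0.531 to 0.903). WWC2, a scaffold of LATS kinases, had a ratio of 0.785 (0.705 to 0.874). The merlin gene NF2 (fractional count), at 1.17 (1.07 to 1.28), and WWC1, which encodes KIBRA, at 1.10 (1.05 to 1.16), were higher. So were WTIP, a relative of AJUBA, at 1.21 (1.01 to 1.46), and SCRIB, at 1.12 (1.06 to 1.17). NF2, WWC1 and SCRIB were singled out only once their values were known. Merlin and KIBRA act together to activate LATS kinases. Whether any of these upstream genes bears on the members was not tested.

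Close relatives of the members, compared in 15 pairs with relatives or binding partners, went with the member in some families and not in others. In the angiomotin family all 3 genes were lower, AMOT from 4.53 CPM (77 counts) to 2.56 CPM (43 counts) with a ratio of 0.565 (0.380 to 0.831), and AMOTL1 from 73.5 to 59.7 CPM with a ratio of 0.812 (0.747 to 0.883). The ratio of AMOTL2 was higher than theirs, by 1.65 (1.11 to 2.46) over AMOT and 1.15 (1.03 to 1.27) over AMOTL1. With the trend removed it was 1.49 (1.01 to 2.22) over AMOT, and 1.03 (0.930 to 1.14) over AMOTL1, which included 1. In the AJUBA family, LIMD1 had a ratio of 0.835 (0.784 to 0.888), whereas WTIP had one of 1.21 (1.01 to 1.46), and AJUBA over WTIP was 0.739 (0.607 to 0.900). LATS2 and LATS1 did not differ from each other beyond counting error, at 0.992 (0.827 to 1.19). PTPN14 was below its paralog PTPN21, which had a ratio of 0.941 (0.819 to 1.08), by a ratio of 0.772 (0.653 to 0.912). ANKRD1 was below ANKRD2 by 0.618 (0.435 to 0.876), with ANKRD2 at 6.06 and 6.84 CPM. CCN3, a relative of CCN1 and CCN2, was at 9.94 and 9.99 CPM. AMOT, ANKRD2, PTPN21 and CCN3 fall outside the rule for named genes and were chosen with their values in view.

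Of the receptors related to AXL, TYRO3 had a ratio of 0.945 (0.804 to 1.11) and MERTK, at 73 and 52 counts, one of 0.720 (0.495 to 1.04). Their ligand GAS6 was at 8.88 and 8.98 CPM, and the ligand PROS1 had a ratio of 0.944 (0.817 to 1.09). The inhibitors of the tissue factor pathway, TFPI and TFPI2, had ratios of 0.905 (0.792 to 1.03) and 0.900 (0.872 to 0.929), and F3 did not differ from either beyond counting error, at 0.808 (0.603 to 1.08) and 0.812 (0.626 to 1.05). BMP4, a ligand of the family that CRIM1 binds, had a ratio of 0.912 (0.822 to 1.01). Of the 15 pairs, 5 had an interval that excluded 1, and these were the pairs of AMOTL2 with AMOT and AMOTL1, AJUBA with WTIP, PTPN14 with PTPN21 and ANKRD1 with ANKRD2. With the trend removed 6 did, without AMOTL2 over AMOTL1 and with AXL over TYRO3 at 0.827 (upper bound 0.978) and F3 over TFPI at 0.701 (0.523 to 0.936). A share over pairs of other expressed genes was not computed here either. TYRO3, MERTK and GAS6 were also chosen with their values in view.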

How the data were processed

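Total RNA was taken up in Trizol and made into Illumina TruSeq libraries, per the labels' protocols. The authors deposited estimated counts per Entrez gene, 1 file per library, and per the submitters' processing notes the build was GRCh38.p12 and the tools were RSEM 1.2.12, HISAT2 2.0.4 and Bowtie2, with no role or order stated. Annotation, strand setting and filters are not stated there, so reads shared with overlapping or antisense genes cannot be separated.

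From these counts CPM, ratios and exact intervals were computed with scipy 1.17.1 (counts rounded to whole numbers), and the difference as log2(CPM + 1). Symbols came from RefSeq (16183 of 16399 IDs matched), and lengths and GC content from GENCODE release 29 (98.8% of expressed genes). The trend was an additive lowess fit with a span of 0.3 (statsmodels 0.14.6). The calculation was run on simulated Poisson counts with known fold changes, with and without a length trend. These had no spread between cultures, so the run checks the code and says nothing on that spread.

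The members and lists were chosen with earlier results of these data known. Named were PKP2, all members, the YAP, TAZ, TEAD and VGLL genes, and from each other list the 4 largest differences at an average of at least 5 CPM. Any other gene was chosen with its value in view. Alternatives covered the pseudocount, the filter, scaling, the trend and fractional counts.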

Additional observations from a re-analysis of the deposited data

How the results depend on the processing

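No paired analysis was possible because each group held 1 library. Under the 4 alternatives that can move a counting interval (median scaling, trimmed mean scaling, totals without PKP2, the trend removed) 8 members had an interval below 1 and 0 above 1. Median and trimmed mean scaling shifted the libraries by -0.0061 and -0.00037 on the log2 scale. Totals without PKP2 moved the difference of AMOTL2 from -0.1046 to -0.1043. These shifts were too small to carry the bound nearest to 1, 0.982 for AMOTL2, across 1. Of the 4, only removal of the trend could therefore have changed the counts. The other 5 (pseudocounts of 0.1 and 5 CPM, no filter, an average of at least 5 CPM, fractional counts left out) cannot change these counts and say nothing on them. With the trend removed, an alternative added after seeing the data for pairs, the pairs of members that excluded 1 went from 25 to 15. The median difference was -0.22 with the trend removed and -0.26 with median scaling. Of 90 differences of members over the 9 alternatives, 86 stayed within the counting interval. The other 4 were CCN1, CCN2, CRIM1 and PTPN14 with the trend removed, of which CCN1 and CCN2 changed sign, to -0.06 and -0.07. Among the 86 are all values under no filter, an average of at least 5 CPM and fractional counts left out. These could not move, because every member averaged at least 5 CPM and had whole counts, so they say nothing on stability. Counts of 107 to 222 limit F3 and ANKRD1. Spread between cultures was not measured.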
